A study of Mus musculus with 6 samples.

Results

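The 32 genes described here encode the enzymes of glycolysis, the carriers that move glucose and lactate across the plasma membrane, and the kinases and phosphatase that set how much fructose bisphosphate is made and how much pyruvate enters the mitochondrion. They were taken by gene symbol, with 1 row per symbol, the row with the most reads over the 6 libraries. All 32 were found among the 24288 gene symbols of the expression table, and all 32 were among the 17038 genes with enough reads to be tested. The rule uses symbols and no measured value, but the list was drawn up with earlier results of these data known.

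Glycolysis splits glucose into pyruvate in the cytosol and yields ATP without oxygen. Pyruvate is then either reduced to lactate by lactate dehydrogenase, and exported by monocarboxylate carriers, or oxidized to acetyl-CoA by the pyruvate dehydrogenase complex. Most steps can be carried out by several isozymes, which differ in tissue, affinity and control, so a cell can change its isozymes without changing the pathway. Pluripotent cells are known for high glycolytic activity, and cells of the primed state, which follows implantation, rely on it more than naive cells.

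The libraries came from day 2 epiblast-like cells (EpiLCs), a culture model of the early post-implantation epiblast, made from mouse embryonic stem cells (ESCs) of strain 129/Sv//Ev. WT cells (n = 3) were of the CCE line, and Smad2/3 double knockout cells (DKO, n = 3) were of clone KT15.1F6, in which a region around exon 1 of Smad3 had been removed from Smad2-/- ESCs by CRISPR/Cas9 nickase. Both genotypes were kept in medium with PD0325091, CHIR99021 and LIF, and were then given activin A (20 ng/ml), Fgf2 (12 ng/ml) and 1% KSR on fibronectin for 48 h. Smad2 and Smad3 carry Nodal and activin signals to the nucleus, so the comparison asks which transcripts depend on them as ESCs leave the naive state. The 3 libraries of a genotype were independent differentiations of a single line or clone, so differences between the lines and effects of the knockout cannot be told apart.

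RNA was depleted of ribosomal RNA, and reads were counted over whole gene bodies, introns included. Values are given as normalized reads, which are reads divided by 1 size factor per library. Depth was 57644143 to 63046034 reads per library over 1 row per gene, and the 32 genes took 0.728% to 0.744% of the reads in WT and 0.705% to 0.717% in DKO. Smad3 measured 799 to 873 normalized reads in the WT libraries and 18.7 to 30.5 in those of DKO, whereas Smad2, whose disruption does not show in reads over the whole gene body, measured 4438 to 4609.9 in WT and 4958 to 5176 in DKO. Markers are counted here by the calling rule of the next paragraph, by which 7.35% of all genes tested were higher and 8.04% lower in DKO. Of 6 epiblast markers, 1 was higher and 2 were lower in DKO. Sox2 went from 2798 ± 46.0 to 7741 ± 110.0 normalized reads, Fgf5 from 3235 ± 12.6 to 798 ± 23.0 and Pou3f1 from 6064 ± 147 to 3948 ± 161 (mean ± SD, n = 3 each). Dnmt3b (70389.7 ± 1336 and 65421 ± 388) and Pou5f1 (21846 ± 496 and 20761 ± 344) were abundant in both genotypes. Of 8 tested trophoblast markers, 7 were higher in DKO, and their summed level was 1814 to 1927 normalized reads in WT and 3320 to 3704 in DKO. Elf5, a defining trophoblast gene, was near 0 in both genotypes (means of 0.716 and 1.04). The fibroblast markers, 2 of 8 tested lower in DKO, summed to 2732 to 2790 in WT and 1698 to 1893 in DKO, with Postn and S100a4 near 0. Without Dcn, which went from 1329.6 ± 51.3 to 300.4 ± 16.9, the sums were 1402 to 1479 and 1395 to 1577. Of 7 tested extra-embryonic endoderm markers, 2 were higher and the median log2 fold change was -0.11, while the list summed to 157 to 199 in WT and 243 to 329 in DKO. Per the study's methods, the ESC lines were grown without feeder cells. The part of these cell types or transcripts in the results below was not tested.

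A gene was called changed when its limma p, adjusted by Benjamini-Hochberg over all genes tested, lay under 0.05 and its fold change exceeded 1.5. By this rule 4 of the 32 genes changed (12.5%), against 15.4% of all genes tested, so the share was close to the background. All 4, Slc2a3, Eno3, Ldhb and Pdk4, were higher in DKO, where the background was 7.35%. In the other direction, where the background was 8.04%, limma called no member, nor did edgeR or DESeq2. At an unadjusted p under 0.05 (limma), 13 members were lower and 11 higher, and no such share over all genes was computed. On the log2 scale, the 28 members not called lay between -0.42 and 0.53. In bulk samples such as these, fewer cells with a transcript and less of the transcript per cell cannot be told apart.

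Small shifts were common. At an adjusted p under 0.05 and any fold change, 22 of 32 members differed, 12 lower and 10 higher in DKO, against 53.4% of all genes tested (26.5% lower, 26.9% higher). The values of WT and DKO did not overlap for 23 members, 13 lower and 10 higher, while 59.0% of all genes showed no overlap (29.3% lower, 29.7% higher). Reads of 29 members averaged at least 100 per library. The median log2 fold change was -0.0038 over the members and 0.00012 over all genes, and the median size of the change was 0.19 in both. When the genes tested were restricted to the 11930 averaging 100 normalized reads or more, the median size was 0.14 and 10.1% were called. In signed change the median member thus lay at the median of all genes, while single steps differed. In size, the values of the 32 members (0.19, with 12.5% called) are not on like terms with those of the 11930 genes. Eno2, Pdk2 and the called Pdk4 averaged under 100 normalized reads and would not be among them. Whether the other 29 members differ in size from these genes was not tested. By the span of the matched transcript, 13 members overlap another annotated gene, so reads of both may be pooled there, and no such overlap was found for the 4 called genes.

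**Figure D1:**
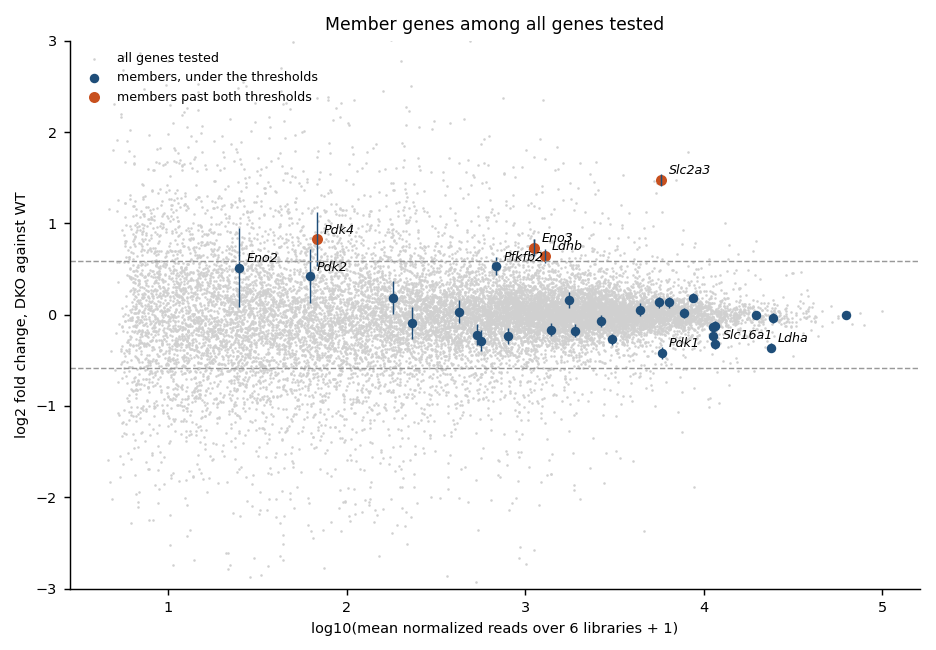
Log2 fold change of DKO against WT (y axis) by mean normalized reads over the 6 libraries, log10 scale (x axis), for all 17038 genes tested (grey) and for the 32 members (blue, or orange where called), with bars for the 95% interval of each member. Dashed lines mark a 1.5-fold change. Slc2a3, at 1.48, has the largest fold change of the members, and most members lie near 0. A further 60 genes lie beyond 3 on either side and are not drawn.

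Counts include reads from introns, so levels per kilobase of exons are raised for genes with many such reads and compare genes only roughly. On this scale, the most abundant members in WT were Pkm (30640), Aldoa (16941), Ldha (16785), Slc16a3 (8610) and Tpi1 (7581 normalized reads per kilobase). At the other end stood Eno2 (8.23), Pdk4 (13.7), Pdk2 (23.2), Pfkfb4 (48.6) and Aldoc (85.4). Several of the scarce genes, such as Eno2 and Aldoc, are best known from brain. Since gene bodies include introns, dividing by gene body gives another order, led by Aldoa (4745), Tpi1 (3283), Pkm (2765) and Ldha (2723 normalized reads per kilobase). The order among these leaders therefore depends on the length used.

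Glucose enters these cells through the facilitative carriers Slc2a1 (GLUT1), found in most proliferating cells, and Slc2a3 (GLUT3), which has a higher affinity for glucose and is prominent in neurons and trophoblast. Slc2a3 (NM_011401, chromosome 6, 122727809 to 122742745, minus strand, GRCm38) measured 2975, 3021 and 3182 normalized reads in the WT libraries and 8779, 8733 and 8041 in the DKO libraries. All DKO libraries lay far above all WT libraries, a 2.78-fold rise and a log2 fold change of 1.48 ± 0.03 (SE, adjusted p = 1.08e-22 by limma). This was the largest fold change of any member. Slc2a1 (NM_011400, chromosome 4, 119108711 to 119137983, plus strand, GRCm38) measured 5354, 5138 and 5612 in WT and 5887, 5977 and 5819.9 in DKO. The groups did not overlap, but the difference was small, with a log2 change of 0.14 ± 0.03 (adjusted p = 0.000411 by limma). Per kilobase of exons, Slc2a3 made up 31.9% ± 0.623 of the level of both carriers in WT and 54.3% ± 0.981 in DKO (SD, n = 3 each). It was thus the scarcer carrier in WT and the more abundant one in DKO on this scale. Per kilobase of the whole transcript span, introns included (here called the gene body), its share was 52.8% ± 0.713 in WT and 73.9% ± 0.766 in DKO, so its share was higher in DKO on both scales, while the order in WT depended on the scale.

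**Figure D2:**
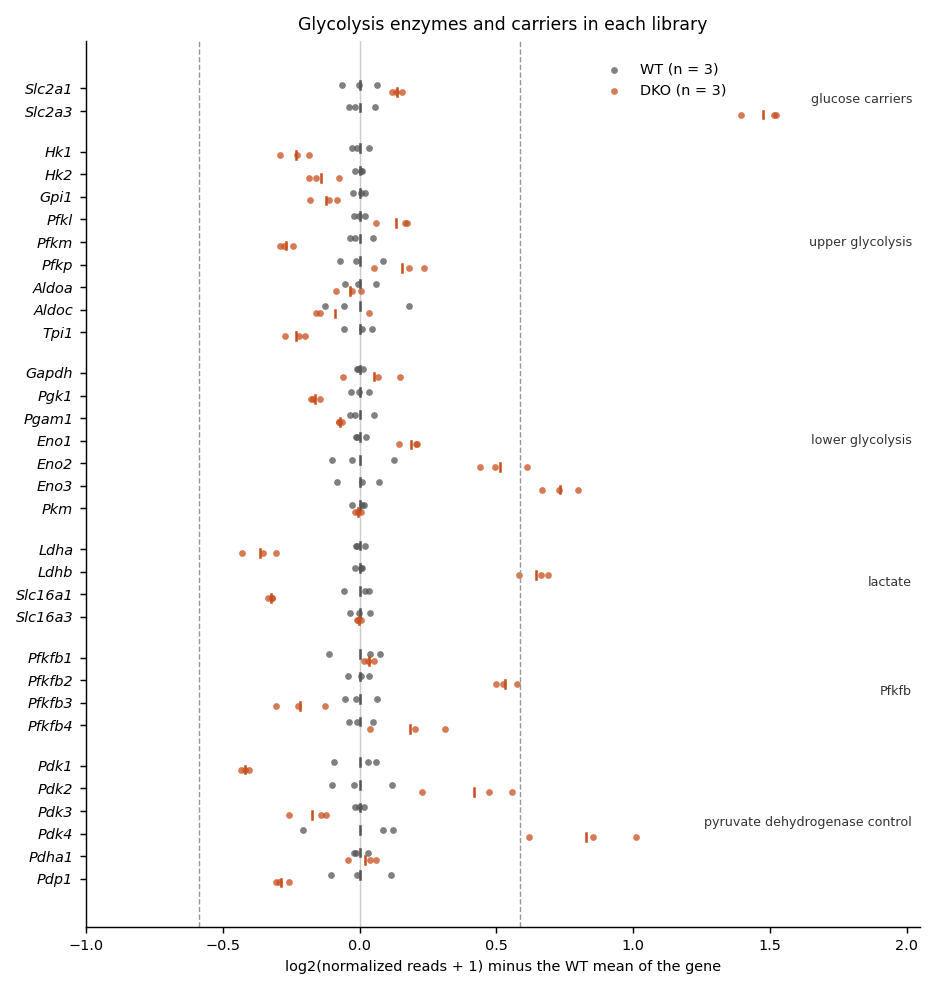
Log2(normalized reads + 1) of each member in each library, relative to the WT mean of that gene (x axis), with members by role (y axis). Grey points are WT, orange points are DKO, n = 3 each, short bars are group means and dashed lines mark a 1.5-fold change. Slc2a3, Eno3, Ldhb and Pdk4 are the 4 genes whose DKO mean lies past a dashed line, while Pkm, Aldoa and Slc16a3 show mixed points.

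In the preparatory steps that trap glucose and cleave it, 9 genes were measured and none was called. At an adjusted p under 0.05 and any fold change (limma), 5 were lower and 2 higher in DKO. By that rule, 26.5% of all genes tested were lower and 26.9% higher. Hexokinase phosphorylates glucose on entry. Hk2, the inducible hexokinase, measured 11844, 11648 and 11811 normalized reads in WT and 10363, 10532 and 11172 in DKO, and Hk1, the constitutive form, 889, 852 and 862 and 709.8, 741 and 764. Both were lower in every DKO library than in any WT library, with log2 fold changes of -0.14 ± 0.03 for Hk2 (adjusted p = 7.78e-05 by limma) and -0.23 ± 0.05 for Hk1 (adjusted p = 0.000162 by limma). Their proportions barely moved, since Hk2 held 90.5% ± 0.134 of the hexokinase level per kilobase of exons in WT and 91.0% ± 0.129 in DKO. Gpi1, which turns glucose 6-phosphate into fructose 6-phosphate, was also slightly lower (-0.12 ± 0.03, adjusted p = 0.000242 by limma).

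Phosphofructokinase is the committed step of glycolysis and works as a tetramer of subunits named for liver (Pfkl), muscle (Pfkm) and platelet (Pfkp). Pfkm, the muscle subunit, measured 3256, 3294 and 3450.3 normalized reads in WT and 2725, 2815 and 2754 in DKO, without overlap. Pfkl measured 6013, 6088 and 6186 and 6873, 6841 and 6350.2, also without overlap but in the opposite direction. The log2 fold changes were -0.27 ± 0.03 for Pfkm (adjusted p = 6.20e-08 by limma) and 0.13 ± 0.03 for Pfkl (adjusted p = 0.000442 by limma). Pfkp measured 1647, 1579 and 1759.6 and 1720.0, 1879.6 and 1956, where 1 DKO library lay within the WT range. Pfkl thus went from 47.5% ± 0.651 to 51.7% ± 1.74 of the subunit level per kilobase of exons, and Pfkm from 34.4% ± 0.222 to 28.3% ± 0.326. Per kilobase of gene body the shares were 71.1% and 75.1% for Pfkl and 22.3% and 17.8% for Pfkm, so their size depends on the length used and the direction does not. Part of the Pfkm gene body is shared with Senp1 on the other strand, and whether the counting used strand was not stated, so the Pfkm reads may include some of Senp1.

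Aldolase cleaves fructose bisphosphate, and Aldoa, its main form here, measured 23808, 24627 and 25768 normalized reads in WT and 24267, 24834 and 23312 in DKO. The groups overlapped, with a log2 change of -0.035 ± 0.03 and a 95% interval of -0.087 to 0.017. Aldoc, known from brain, held only 0.500% ± 0.0376 of the aldolase level in WT and 0.483% ± 0.0520 in DKO per kilobase of exons (1.03% and 0.993% per kilobase of gene body). Tpi1, which interconverts the triose phosphates made by aldolase, went from 11723, 12251 and 12576 to 10597, 10447 and 10089.5. Every DKO library was below every WT library, a log2 fold change of -0.23 ± 0.03 (adjusted p = 5.80e-08 by limma). The Aldoa and Tpi1 bodies are overlapped on the other strand by Fam57b and Spsb2.

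Of the 7 genes of the energy-yielding steps, Eno3 alone was called. Enolase makes phosphoenolpyruvate. Its forms are Eno1, found in most tissues, Eno2 of neurons and Eno3 of muscle. Eno3 (NM_001136062, chromosome 11, 70657202 to 70662513, plus strand, GRCm38) measured 795, 847 and 884 normalized reads in WT and 1465, 1395 and 1337 in DKO. The groups were well apart, with a 1.66-fold rise and a log2 fold change of 0.73 ± 0.05 (adjusted p = 4.90e-13 by limma). Eno1 was higher by less, with 8231, 8023 and 8060.2 in WT and 9381, 9355 and 8957 in DKO, again without overlap, a log2 fold change of 0.19 ± 0.03 (adjusted p = 7.85e-07 by limma). Eno2 was scarce, at 21.5, 18.2 and 19.2 in WT and 26.9, 30.5 and 28.0 in DKO. All its DKO values were above its WT values, but the test missed the threshold (0.51 ± 0.22, adjusted p = 0.0510 by limma). Eno3 supplied 12.6% ± 0.720 of the enolase level per kilobase of exons in WT and 17.4% ± 0.381 in DKO (18.9% and 25.3% per kilobase of gene body), and Eno1 remained the main form.

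Pkm encodes pyruvate kinase, which makes the pyruvate and the last ATP of the pathway. It was the most abundant member, with 61385, 63278 and 62949 normalized reads in WT and 62824, 61895 and 62351 in DKO. The groups overlapped completely, and the log2 fold change was -0.0041 ± 0.02 with a 95% interval of -0.043 to 0.035. Its splice forms M1 and M2 share the gene body and cannot be separated in these counts. Between Tpi1 and Pkm stand Gapdh, Pgk1 and Pgam1, which oxidize triose phosphate, form ATP and shift a phosphate. Their log2 fold changes were 0.051 ± 0.04 for Gapdh, -0.16 ± 0.04 for Pgk1 and -0.073 ± 0.03 for Pgam1, and Pgk1 alone of these was past an adjusted p of 0.05 in limma (0.000699). These genes have many processed pseudogenes. Of all stretches of 75 bases in their transcripts, 88.2% for Gapdh, 67.5% for Pgk1, 40.6% for Pgam1 and 65.4% for Eno1 also occur in transcripts of other genes, and how the counting treated such reads was not stated. Their levels are therefore uncertain, and Gapdh in particular, with matches in 113 pseudogenes, should be read with care. By contrast, Slc2a3, Eno3, Pdk1 and Slc16a1 share no such stretch, Ldhb shares 16.7% and Ldha 6.01%.

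The lactate branch differed in opposite directions at the genes of its enzyme subunits. Lactate dehydrogenase is a tetramer of subunits A and B, where A is usually tied to lactate production and B to lactate use. Ldha (NM_010699, chromosome 7, 46845839 to 46855627, plus strand, GRCm38) measured 26399, 26506 and 27059 normalized reads in WT and 21544, 20886 and 19794 in DKO. Each DKO library lay well below each WT library, 22.2% below the WT level by the ratio of the fit, with a log2 change of -0.36 ± 0.03 (adjusted p = 3.91e-12 by limma), which is under the 1.5-fold threshold. Ldhb (NM_001302765, chromosome 6, 142490249 to 142507957, minus strand, GRCm38) measured 1007, 993 and 1011 in WT and 1591, 1618 and 1502 in DKO. Here all DKO libraries lay above all WT libraries, a 1.56-fold rise and a log2 fold change of 0.64 ± 0.04 (adjusted p = 3.76e-13 by limma). Ldha remained by far the main subunit. Ldhb made up 4.38% ± 0.0465 of the 2 subunits per kilobase of exons in WT and 8.44% ± 0.186 in DKO (SD, n = 3 each). Per kilobase of gene body its share was smaller, 2.04% in WT and 4.02% in DKO.

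Lactate leaves the cell through Slc16a1 (MCT1), which also imports it, and Slc16a3 (MCT4), an exporter of strongly glycolytic cells. Slc16a1 (NM_009196, chromosome 3, 104638668 to 104658462, plus strand, GRCm38) measured 12430.1, 13244 and 13116 normalized reads in WT and 10365, 10261 and 10359.6 in DKO. The groups did not overlap, with a log2 change of -0.32 ± 0.03 (adjusted p = 3.62e-11 by limma). Slc16a3 measured 19101, 19521 and 20066 in WT and 19425, 19474 and 19632 in DKO, with all DKO values inside the WT range. Its log2 fold change was -0.0036 ± 0.02 with a 95% interval of -0.048 to 0.041. So Ldha and Slc16a1 were lower in DKO without reaching 1.5-fold, and Slc16a3 showed no difference beyond the spread.

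The 250 bases upstream of an annotated transcription start were examined for 3 short motifs, on both strands: ACGTG, the core bound by Hif factors, CACGTG, the E-box bound by Myc family factors, and CAGAC, the Smad box. CACGTG contains ACGTG on each strand, so it counts toward both. RefSeq windows (GRCm38.p6) were at hand for 30 of the 32 members. Where several were listed, as for Pfkm and Pfkfb1 (4 each), the window nearest the start of the matched transcript was taken. Its start lay farthest from that of the transcript for Pfkfb2 (13205 bases), Gapdh (694) and Slc16a3 (587). Which starts these cells use was not tested. ACGTG was present in 11 of the 30 (36.7%, against 16.6% of all 32851 windows), CACGTG in 4 (13.3%, against 6.02%) and CAGAC in 8 (26.7%, against 42.2%). The member windows were also richer in G and C, with a median of 59.0% against 52.4%, and the part of base composition in the motif shares was not tested. The Pdk1 window holds no ACGTG, and those of Slc2a1 and Pdk2, both higher in DKO, hold it. As examples, the 4 windows below are those of 2 lactate genes that were lower in DKO and hold the motif, Ldha (chr7:46845554-46845803, plus strand) and Slc16a1 (chr3:104638414-104638663, plus strand), and of 2 called genes that hold none of the 3 motifs, Ldhb (chr6:142507958-142508207, minus strand) and Eno3 (chr11:70656926-70657175, plus strand). Each is written 5′ to 3′ on the strand of the gene, and capitals mark the motif matches.
Ldha: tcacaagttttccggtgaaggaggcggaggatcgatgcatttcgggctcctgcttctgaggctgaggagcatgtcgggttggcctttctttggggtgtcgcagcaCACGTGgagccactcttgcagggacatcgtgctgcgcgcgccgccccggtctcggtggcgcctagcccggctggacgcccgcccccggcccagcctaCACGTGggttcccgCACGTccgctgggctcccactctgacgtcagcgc
Slc16a1: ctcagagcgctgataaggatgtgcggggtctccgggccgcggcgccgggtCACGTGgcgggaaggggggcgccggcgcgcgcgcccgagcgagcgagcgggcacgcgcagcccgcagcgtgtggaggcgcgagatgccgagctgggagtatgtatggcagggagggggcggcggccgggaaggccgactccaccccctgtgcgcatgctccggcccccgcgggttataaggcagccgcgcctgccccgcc
Ldhb: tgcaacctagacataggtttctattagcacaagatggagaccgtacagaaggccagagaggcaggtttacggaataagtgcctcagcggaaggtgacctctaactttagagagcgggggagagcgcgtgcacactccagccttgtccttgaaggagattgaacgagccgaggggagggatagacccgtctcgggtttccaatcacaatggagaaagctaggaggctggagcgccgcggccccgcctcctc
Eno3: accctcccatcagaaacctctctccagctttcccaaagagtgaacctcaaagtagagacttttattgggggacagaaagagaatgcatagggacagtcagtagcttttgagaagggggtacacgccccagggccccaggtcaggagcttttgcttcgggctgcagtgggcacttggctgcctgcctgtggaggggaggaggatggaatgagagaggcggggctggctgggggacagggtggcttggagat
The Ldha window holds 5 matches to ACGTG, 4 of them from 2 palindromic CACGTG sites, and that of Slc16a1 holds 1 CACGTG. A match of letters is not evidence of binding, and a missing one says only that the letters are absent from these 250 bases.

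Flow through phosphofructokinase is set by fructose 2,6-bisphosphate, which the 4 bifunctional Pfkfb enzymes make and degrade, and their ratio of kinase to phosphatase activity differs. None was called, with 1 higher and 1 lower at an adjusted p under 0.05 and any fold change (limma). By that rule, 26.9% of all genes tested were higher and 26.5% lower. Pfkfb2, known from heart and kidney, measured 546, 575 and 564 normalized reads in WT and 836, 795 and 809 in DKO. All DKO libraries were above all WT libraries, a 1.45-fold difference just under the threshold and a log2 fold change of 0.53 ± 0.05 (adjusted p = 9.29e-10 by limma). Pfkfb3, the inducible form with the strongest kinase bias, went the other way, from 604, 557 and 573 to 468, 529 and 493 (-0.22 ± 0.06, adjusted p = 0.00262 by limma). Pfkfb1 of liver and muscle and Pfkfb4, first described in testis, had log2 fold changes of 0.033 ± 0.06 and 0.18 ± 0.09, with overlapping groups for Pfkfb1 and for Pfkfb4. Pfkfb2 made up 35.8% ± 1.3 of the family level per kilobase of exons in WT and 45.0% ± 1.25 in DKO (43.2% and 52.7% per kilobase of gene body). The Pfkfb2 body overlaps Yod1 on the other strand and Gm29427 and Gm37163 on its own strand. Of its 75-base stretches, 47.4% occur in transcripts of 2 other annotated genes, 0 of them pseudogenes. The reads of Pfkfb2 are therefore less certain than those of Pfkfb3.

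Entry of pyruvate into the mitochondrial cycle is blocked when pyruvate dehydrogenase kinases phosphorylate the E1 subunit encoded by Pdha1, and restored by phosphatases such as that of Pdp1. Pdk1 (NM_172665, chromosome 2, 71873224 to 71903858, plus strand, GRCm38) measured 6242, 6799 and 6947 normalized reads in WT and 4982, 4929 and 5034 in DKO. Every DKO library lay below every WT library, and the log2 fold change of -0.42 ± 0.03 was the lowest of all members, yet under 1.5-fold (adjusted p = 2.02e-11 by limma). Pdk4 (NM_013743, chromosome 6, 5483351 to 5496309, minus strand, GRCm38) was scarce, with 50.5, 51.8 and 41.1 in WT and 96.9, 86.7 and 73.6 in DKO. It rose 1.79-fold without overlap, a log2 fold change of 0.83 ± 0.15 (adjusted p = 4.95e-05 by limma). Pdk4 is the kinase known for induction by fasting and fatty acids.

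Pdk2, widely expressed in adult tissues, measured 48.4, 51.2 and 56.5 normalized reads in WT and 77.0, 60.9 and 72.6 in DKO, and Pdk3 measured 1980.3, 2031 and 2005 and 1841, 1817 and 1678. Neither pair of groups overlapped. Pdk2 was higher (0.42 ± 0.15, adjusted p = 0.0208 by limma) and Pdk3 lower (-0.17 ± 0.04, adjusted p = 0.000341 by limma). In sum of levels per kilobase of exons, Pdk1 supplied 56.6% ± 1.17 in WT and 51.7% ± 1.46 in DKO, Pdk3 41.8% ± 1.14 and 45.3% ± 1.4, and Pdk4 0.606% ± 0.0861 and 1.32% ± 0.154. Per kilobase of gene body Pdk1 took far more, 85.5% in WT and 81.2% in DKO, against 11.7% and 13.1% for Pdk3 and 1.46% and 3.30% for Pdk4. The substrate gene Pdha1 measured 7644, 7888 and 7611 in WT and 8042, 7922 and 7486 in DKO, with overlap (0.018 ± 0.03). The phosphatase gene Pdp1 was lower, at 578, 617 and 673 and 519, 502 and 507 (-0.29 ± 0.06, adjusted p = 0.000167 by limma).

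The balance within families was compared directly through 15 ratios of 1 isozyme to a reference isozyme of its family in the same library, where gene length cancels. In 13 ratios the values of WT and DKO did not overlap. Among all single genes tested, 59.0% showed no overlap, and no such share was computed for ratios of other gene pairs. With 3 libraries against 3, the exact two-sided permutation test cannot go below p = 0.1, and it gave that value for these 13 (0.115 after Benjamini-Hochberg adjustment over the 15), so no ratio could pass 0.05. The ratio of Slc2a3 to Slc2a1 went from 0.570 ± 0.0164 to 1.44 ± 0.0566 (SD, n = 3 each), a log2 difference of 1.34 ± 0.04 (SE). Close behind came Pdk4 to Pdk1, with 1.25 ± 0.18, and Ldhb to Ldha, with 1.01 ± 0.02.

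Ldhb to Ldha went from 0.0377 to 0.0757, with Ldhb higher and Ldha lower in DKO. Pfkfb2 to Pfkfb3 (0.974 to 1.64) and Pfkm to Pfkl (0.547 to 0.414) likewise combined shifts of both genes. Eno3 to Eno1 went from 0.104 to 0.152 although both genes were higher in DKO, and Slc16a3 to Slc16a1 from 1.51 to 1.89 with the difference in Slc16a1. Pfkp to Pfkl and Aldoc to Aldoa overlapped between genotypes, with exact permutation p-values of 0.9 and 0.5. In 12 of the 13 ratios without overlap, the DKO value was the higher one. The reference isozymes were a matter of choice, and ratios to Pdk1 or Pfkfb3 share that denominator, so the 13 are not independent.

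**Figure D3:**
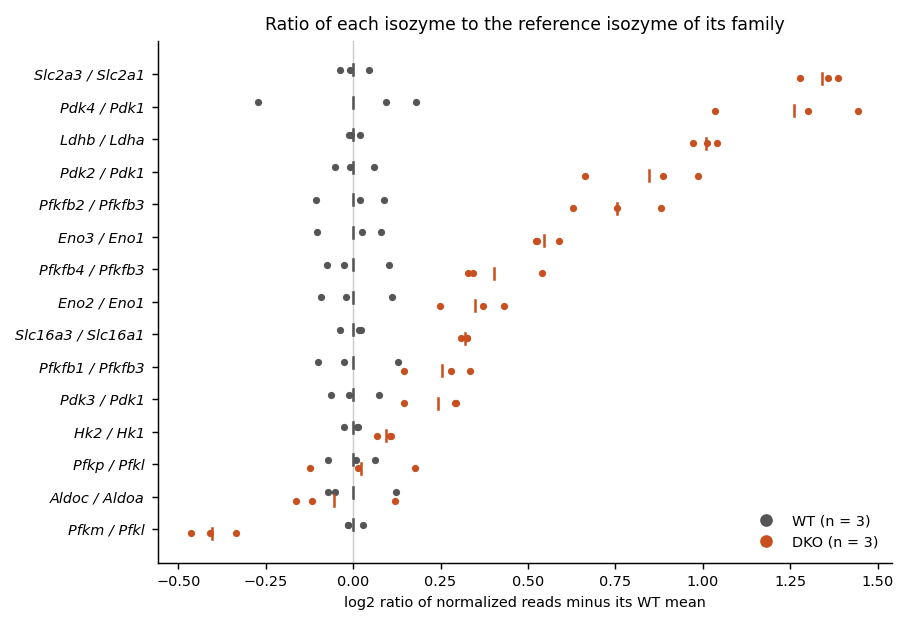
Log2 ratio of each isozyme to the reference isozyme of its family in each library, relative to the WT mean (x axis), for 15 pairs (y axis). Grey points are WT, orange points are DKO, n = 3 each, and short bars are group means. Slc2a3, Pdk4 and Ldhb gained at least 1 log2 unit on their reference isozyme, Pfkm lost 0.40, and the points of Pfkp and Aldoc are mixed.

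**Figure D4:**
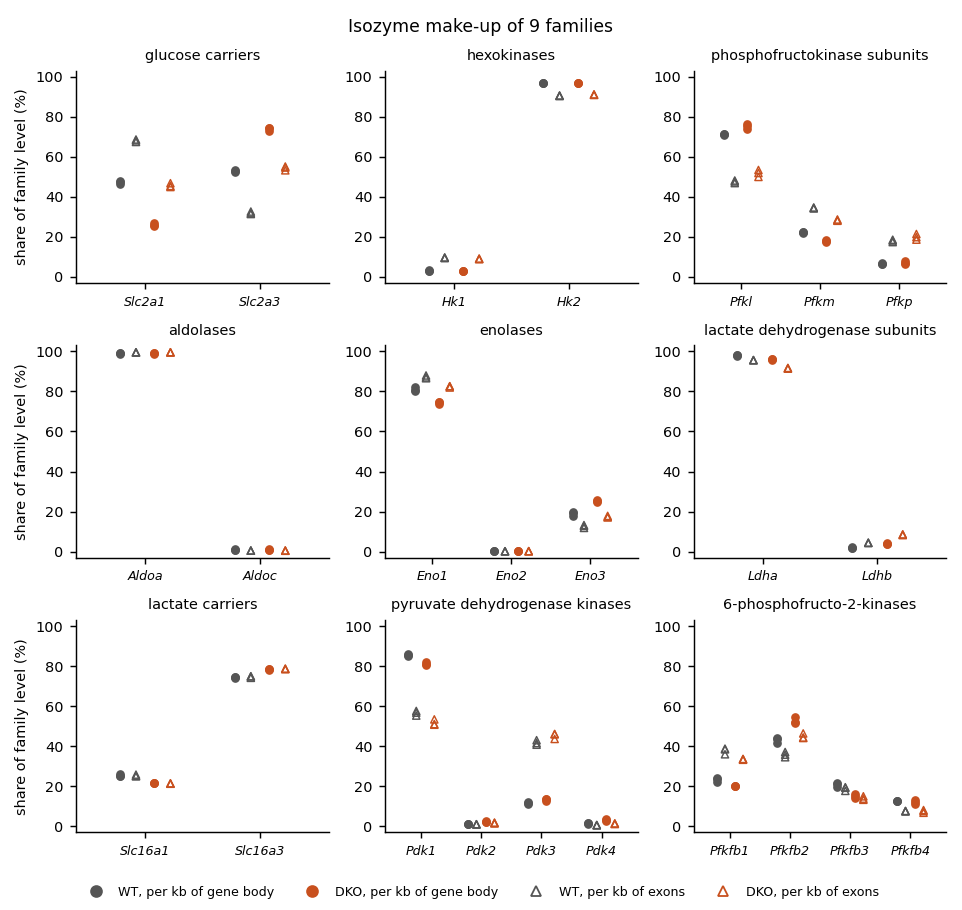
Share of each isozyme in the summed level of its family (y axis, %) for 9 families, per library, with circles for levels per kilobase of gene body and triangles for levels per kilobase of exons (WT grey, DKO orange, n = 3 each). Slc2a3 gains the most, from 31.9% to 54.3% by exons, whereas Hk2, Aldoa and Ldha stay above 90% by exons in both genotypes.

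Isozymes outside the 32 genes were counted from a list of 25, of which 18 had enough reads. Of these 18, 4 were called higher and 1 lower in DKO, against 7.35% and 8.04% of all genes tested. Their median log2 fold change was 0.050 (all genes, 0.00012). Fbp2 and Fbp1, neighbours on chromosome 13, encode fructose bisphosphatases, which reverse phosphofructokinase in gluconeogenesis. Fbp2 went from 25.8, 20.5 and 28.3 to 133, 136 and 120.3 normalized reads (2.35 ± 0.16) and Fbp1 from 55.9, 61.5 and 65.6 to 125, 150.2 and 119.7 (1.09 ± 0.13). Both were far apart between genotypes. Pklr, the pyruvate kinase of liver and red cells, rose from 13.1 ± 1.8 to 26.5 ± 1.3, and the carrier Slc2a6 fell from 12.1 ± 2.97 to 3.48 ± 2.59 (mean ± SD, n = 3 each), both at few reads. Bpgm, which makes the regulator of haemoglobin in red cells, lay nearest the median (0.074 ± 0.05).

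None of 9 genes of pyruvate entry into mitochondria was called by limma or by edgeR, and their median log2 fold change was 0.015. At an adjusted p under 0.05 and any fold change (limma), 4 were higher and 1 lower, against 26.9% and 26.5% of all genes tested. Of 16 tricarboxylic acid cycle genes, Suclg1, a subunit of succinyl-CoA ligase, was the single one called, going from 3076, 2915 and 2951 to 1589, 1569 and 1474 normalized reads (-0.95 ± 0.04), with a list median of 0.041. Of 7 genes of the pentose phosphate pathway, Rpia, the ribose phosphate isomerase, was alone in being called, from 647, 631 and 704 to 338, 381 and 334 (-0.91 ± 0.06), with a median of 0.050. Rpia and Suclg1 lie close together on chromosome 6, and all 31 well expressed genes (mean of at least 100 normalized reads) from one to the other were lower in DKO, 25 of them called, with a median of -0.90. Both genes thus moved together with their chromosomal neighbours. Serine synthesis and one-carbon metabolism, which branches from 3-phosphoglycerate, had the lowest median of these lists, -0.28 over 8 genes. All 8 passed an adjusted p of 0.05 in limma at any fold change, 6 lower and 2 higher. By that rule 53.4% of all genes tested differed, 26.5% lower and 26.9% higher. The summed level of the 8 genes was 53236 to 55944 normalized reads in WT and 46714 to 47526 in DKO. The 2 called genes, both lower where the background was 8.04%, were Mthfd2, a mitochondrial folate enzyme (-0.89 ± 0.03), and Psat1, the aminotransferase of serine synthesis (-0.68 ± 0.03).

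**Figure D5:**
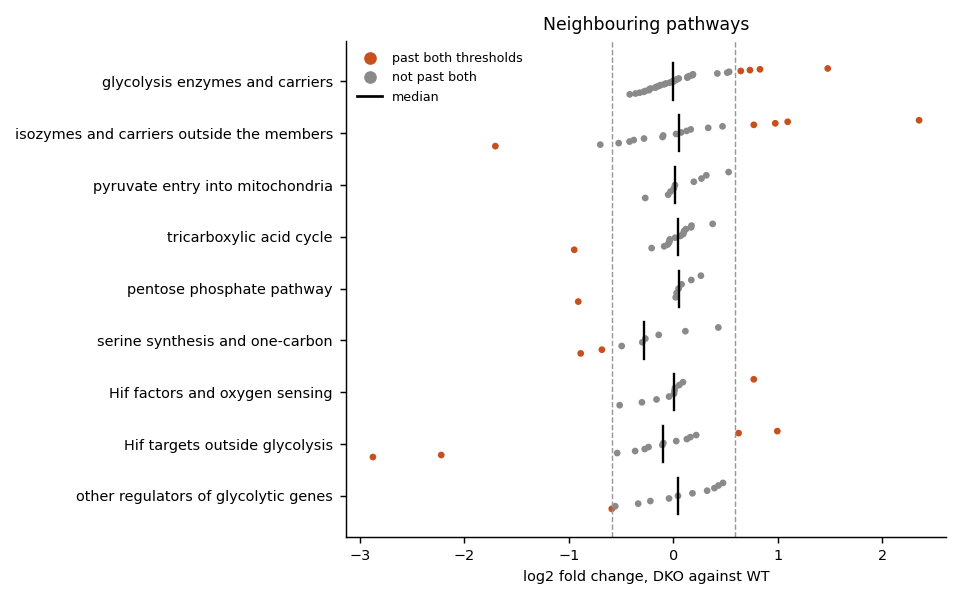
Log2 fold change of DKO against WT (x axis) for the genes of 9 lists (y axis), each point a gene, orange where called, with a black bar at the list median and dashed lines at a 1.5-fold change. List medians lie between -0.28 for serine synthesis and one-carbon metabolism and 0.050. Of the genes tested, 5 of 18 isozymes outside the members and 4 of 14 Hif targets were called, against 15.4% of all genes.

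Hif factors, which are held down by oxygen-dependent hydroxylases, and Myc drive many glycolytic genes, so their transcripts and other known targets were examined. Of 10 Hif factors and oxygen sensors, Epas1 (HIF2A) was called, from 454, 442 and 565 to 853, 757 and 871 normalized reads (0.77 ± 0.07), while Hif1a measured 12036 ± 394 in WT and 12818 ± 337 in DKO (mean ± SD, n = 3 each). Of 14 Hif targets outside glycolysis, 2 were called higher and 2 lower, against 7.35% and 8.04% of all genes tested. Car9, a carbonic anhydrase that exports acid, fell from 50.5, 51.2 and 47.5 to 7.53, 5.25 and 5.18 (-2.88 ± 0.25), and Vegfa, the vascular growth factor, from 359, 378 and 389 to 66.7, 84.1 and 90.2 (-2.22 ± 0.10). Ndrg1 and Ddit4, both stress-responsive, rose (0.99 ± 0.11 and 0.62 ± 0.05). The targets thus did not move in a single direction. Myc went from 867, 766 and 810.2 to 535, 552 and 534 (-0.59 ± 0.05), just past the threshold of 1.5-fold, and its call was lost without WT replicate 1 (-0.54), without DKO replicate 1 or 3 (both -0.58) and with a pseudocount of 10 (-0.58). It was the only one called of 11 tested regulators of glycolytic genes, whose median was 0.044.

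Because 3 of the 4 called members, Slc2a3, Ldhb and Pdk4, lie on chromosome 6, as do 7 of the 32, their surroundings were examined after their values were seen. Over 532 well expressed genes of this chromosome the median log2 fold change was -0.0029, with 31 called higher and 59 lower. Of all 11930 genes at this level, 10.1% were called in either direction, a smaller share than on this chromosome. Of the 59, 25 lie in the stretch from Rpia to Suclg1. Among the 10 nearest well expressed genes, 5 on each side, the median was -0.10 around Slc2a3, 0.20 around Ldhb and -0.08 around Pdk4, and it was 0.11 around Eno3 on chromosome 11. Around Hk2, also on chromosome 6, it was -0.13 (range -1.60 to 0.36), with -0.14 for Hk2 itself. Those 10 genes include Suclg1 (73248382 to 73276911), an end of the stretch from Rpia to Suclg1, while Hk2 lies at 82725025 to 82774454. Around Tpi1 on the same chromosome the median was -0.0047, with -0.23 for Tpi1 itself. Elsewhere it was -0.070 around Ldha (-0.36 itself), 0.042 around Slc16a1 (-0.32), 0.075 around Pdk1 (-0.42) and 0.12 around Pfkfb2 (0.53). Around each of the 4 called members 1 or 2 of the 10 were called higher, and 2 were called lower around Slc2a3 and 2 around Pdk4. The highest of the 10 was 2.09 around Slc2a3, 0.70 around Ldhb and 1.20 around Pdk4, each above the value of the member itself, and 0.70 around Eno3. None of the 4 lies in the stretch from Rpia to Suclg1.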

How the data were processed

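RNA was taken from day 2 EpiLCs of 2 genotypes (WT, n = 3; DKO, n = 3), and strand-specific libraries were read paired-end over 75 cycles. The submitters' processing notes name Bowtie2, STAR, SAMtools, DESeq2 and mm10, with versions not given in the sources used here. Per the study's methods, reads over mm10 refGene gene bodies were counted. The deposited expression table holds a signal per row, read counts that the authors divided by 1 size factor per library, without scaling for length. Gene bodies are taken to include introns, since 770 of 800 isoform pairs with the same span but other exons had identical values. A second deposited table holds only the authors' DESeq2 results (means, fold changes, standard errors, statistics and p-values) and was not used.

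Size factors of 1.76 to 1.93 gave back whole reads for 100% of the values in every library within 0.01 read, and depth was 57644143 to 63046034 reads per library. Errors describe the spread between libraries and of counting, and without molecular identifiers a read is not a separate molecule. The 138 rows without a symbol (0.517% of reads) were left out. Genes, 1 row per symbol, passed filterByExpr of edgeR (4.0.16) on the recovered reads. The main test was limma (3.58.1, R 4.3.3, mean-dependent variance trend) on log2(value + 1), over all 17038 genes with Benjamini-Hochberg adjustment, so fold changes of genes with few reads are understated. A call needed an adjusted p under 0.05 and a fold change over 1.5, the study's thresholds. Intervals of fold changes are normal 95% intervals. Isozyme ratios were compared by an exact two-sided permutation test. The fits were tested on simulated data.

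Alternatives were edgeR and DESeq2 (1.42.0) on the recovered reads, pseudocounts of 0.1 and 10, other scalings, no filter, other row choices, no fold threshold, a test against 1.5-fold (treat), a replicate block and leaving out each library. Members and gene lists were chosen with earlier results of these data known. Named genes were drawn from all members, Smad2 and Smad3, and from each other list up to 4 called genes with the largest change and the gene nearest the list median. Others (Pou5f1, Hif1a, Elf5, Postn and S100a4) were chosen after their values were seen. Positions and lengths are those of the GENCODE transcript (GRCm38) matched to the RefSeq identifier of the row, and promoter windows came from RefSeq (GRCm38.p6).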

Additional observations from a re-analysis of the deposited data

How the results depend on the processing

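Slc2a3, Eno3, Ldhb and Pdk4, and no other member, were called with edgeR, DESeq2, every scaling, filter, row choice and pseudocount, the replicate block and each library left out. Only the thresholds moved the count of members. Genes changed also moved with other choices, from 2623 to 2096 with a pseudocount of 10 and 3904 with all rows tested. Without the fold threshold 22 members (12 lower, 10 higher) and 9098 genes (4507 lower, 4591 higher) passed, and against a fold change of 1.5 itself (treat) 2 members, both higher, Slc2a3 and Eno3, and 1115 genes (591 lower, 524 higher). Pdk4 and Ldhb were not called by treat. Over all fits the log2 fold change ranged from 1.45 to 1.52 for Slc2a3, 0.69 to 0.77 for Eno3, 0.62 to 0.68 for Ldhb and 0.73 to 0.93 for Pdk4.

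Signs turned only when single libraries were left out. Among members, log2 fold changes near 0 ran from -0.15 to 0.0020 for Aldoc, -0.017 to 0.0045 for Pkm, -0.021 to 0.015 for Slc16a3, -0.023 to 0.070 for Pfkfb1 and -0.0024 to 0.049 for Pdha1. Among other genes they ran from -0.014 to 0.046 for Idh3g, -0.018 to 0.030 for Vhl and -0.0040 to 0.082 for Mlx. The range of Amn was wider, -0.46 to 0.29. The log2 ratio likewise spanned -0.055 to 0.095 for Pfkp to Pfkl and -0.14 to 0.0070 for Aldoc to Aldoa. The cause was not tested. Genes changed numbered 2529 to 2610 with 1 library left out.

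Replicate numbers did not pair the samples. Deviations of same-numbered libraries correlated at 0.0088, -0.029 and 0.036 over 11930 genes. With the replicate block, 2602 genes (1362 lower, 1240 higher) and the same 4 members changed. Genes with few reads, such as Eno2, Pdk2 and Pdk4, have the widest intervals.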
